A study of Mus musculus with 12 samples.

Results

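Proneural genes encode basic helix-loop-helix (bHLH) transcription factors that start the neuronal programme, and the genes considered here are 4 such factors of the Neurog and Neurod families (Neurog1, Neurog2, Neurod1 and Neurod4) with 4 genes of neurogenic commitment (Hes6, Insm1, Nhlh1 and Ebf2). They were chosen by name, and their members were the array probe sets annotated to exactly 1 gene, that gene being one of the 8. This gave 8 of the 18193 genes that the annotation names, on 16 of the 45101 probe sets of the array. The RNA came from the neural tube, in its posterior region, of CD1 mouse embryos at embryonic day 9.5, cut into 6 pieces called part 1, part 2, part 3, part 4, part 5 and part 6. Each piece had 2 Affymetrix arrays (replicates 1 and 2), and the series' design text names 2 embryos for all 12 arrays. All pieces were untreated apart from the dissection, in which every embryo was held in pancreatin, an enzyme mixture that loosens tissue layers, at 2 mg/ml for 1 min. The labels do not say which end of the series is caudal, so pieces are given by number.

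Proneural factors pair with E proteins and bind short DNA sites called E-boxes, where they switch on neuronal genes and the Notch ligands through which a cell holds back its neighbours. Neurog factors act early and drive Neurod factors, which act in cells that are leaving the cell cycle. Id proteins and Hes repressors oppose them. In the developing spinal cord this sequence runs in progenitors of the ventricular layer and produces motor neurons, interneurons and, through related factors, sensory neurons of the ganglia.

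Along the pieces the proneural genes differed in where they were first called above part 1. Neurog2 was called above its part 1 level from part 2 onward, and Neurog1 and Neurod1 from part 5. With some other settings of the fit Neurog1 was called from part 4, and with some the part 5 call of Neurod1 was lost. With its brightest probe set, Neurod4 was above the array medians in part 6 alone, and its call there was lost without the filter on low signals. Another Neurod4 probe set was highest in part 1. Nhlh1 and Insm1 did not reach the median signal of any array. Hes6 was above the array median on all arrays with its brighter probe set, which was lowest in part 6. With its brightest probe set Ebf2 was higher in parts 1 and 2 than in later pieces. The falling slope of Ebf2 lost its call when some single arrays were left out. Values are MAS5 signals, linear intensities scaled to a trimmed mean of 100 on each array, and the array medians were between 16.7 and 19.1. Log2 values are log2(signal + 4.43), where the added constant damps the changes of dim genes. Adjusted p-values come from limma fits with Benjamini-Hochberg adjustment over 12089 genes, with a threshold of 0.05. A probe set entered these fits when it exceeded the array median on at least 2 arrays, and 8 of the 16 did, standing for 6 of the 8 genes. All of these except the Hes6 probe sets passed only through the pieces where their signal was high, so the share of tested members that changed is no measure of the whole set. The replicates are called embryos here because of the design text, though the labels do not name the embryo of each array. The p-values rest on the spread between these few arrays. The main fits held no embryo term, so they took the pieces of an embryo as independent.

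**Figure D1:**
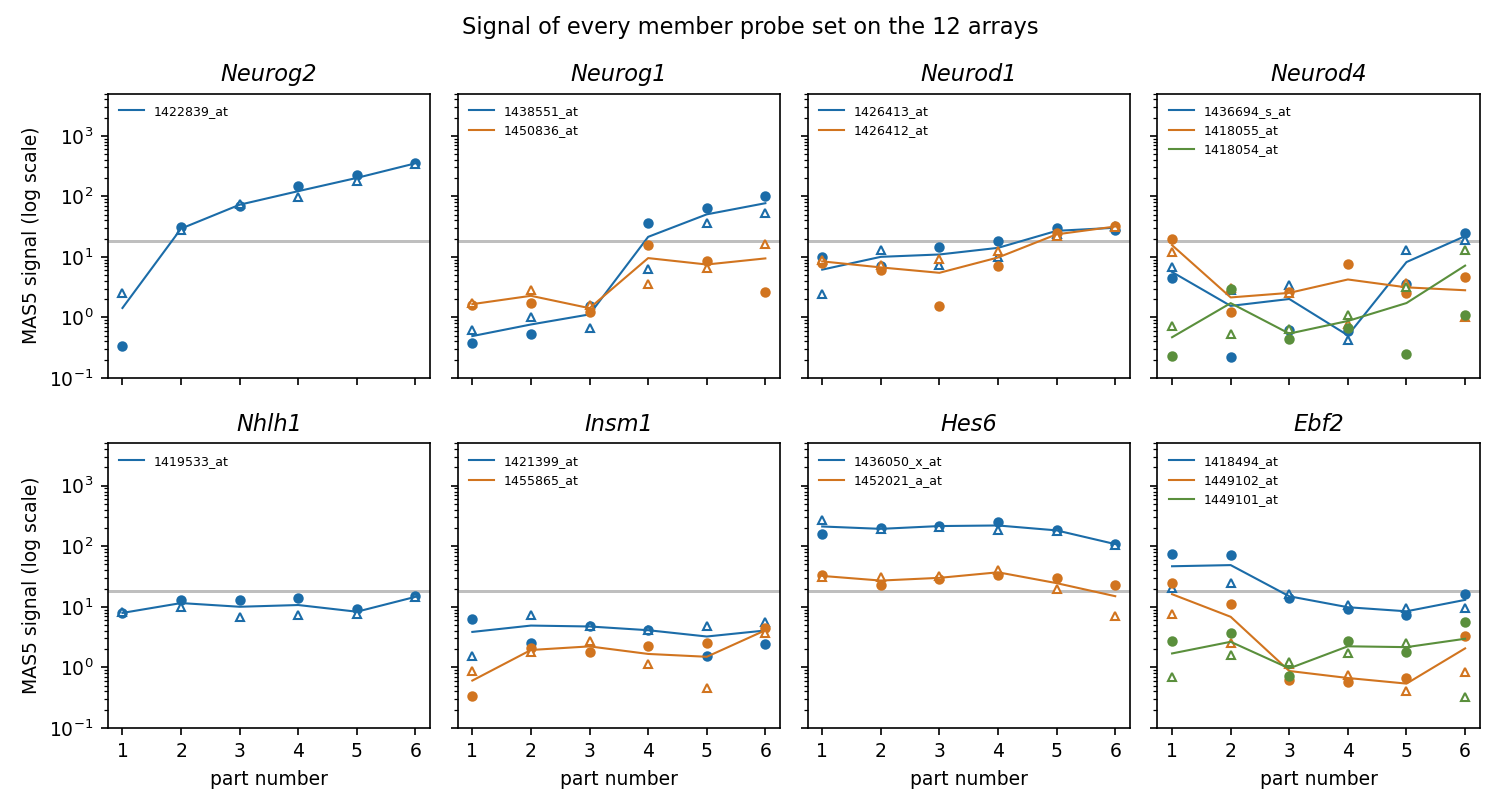
Signal (log scale) of the 16 member probe sets against part number; filled circles are replicate 1, open triangles replicate 2, lines join the piece means and the grey band spans the array medians, 16.7 to 19.1. Neurog2 leaves the band in part 2, Neurog1 and Neurod1 in later pieces, and Nhlh1 and Insm1 stay under it.

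Neurog2, the proneural factor of motor neuron and several interneuron progenitors, had 1 probe set (1422839_at). Its signals were 0.341 and 2.52 in part 1, 31.2 and 27.4 in part 2, 69.4 and 76.0 in part 3, 146 and 98.0 in part 4, 222 and 182 in part 5, and 354 and 349 in part 6. The arrays of consecutive pieces did not overlap at any step. The slope was 1.09 ± 0.094 log2 per part (SE, n = 12 arrays; limma adjusted p = 8.04e-06). Part 6 exceeded part 1 by 5.95 ± 0.24 log2 (SE), with a mean signal of 351 ± 3.69 in part 6 and 1.43 ± 1.54 in part 1 (SD, n = 2 each). The part 1 signals lay under the added constant of 4.43, so the size of that difference depends on the constant. In bulk tissue, fewer cells of a type and less RNA per cell cannot be told apart.

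Neurog1, the related factor of dorsal interneuron and sensory progenitors, was read by a probe set (1438551_at) with signals of 0.375 and 0.608 in part 1, 0.529 and 1.00 in part 2, 1.56 and 0.680 in part 3, 36.4 and 6.36 in part 4, 64.5 and 36.3 in part 5, and 101 and 53.1 in part 6. Thus parts 1 to 3 were near the floor, the embryos were unequal in part 4, and all 4 arrays of parts 5 and 6 lay close to or above the higher part 4 array. The slope was 0.91 ± 0.11 log2 per part (limma adjusted p = 0.000153), and part 6 exceeded part 1 by 3.98 ± 0.54 log2 (adjusted p = 0.00177). As part 1 lay far under the added constant, this size depends on it, and was 5.64 with a constant of 1 and 2.33 with one equal to the median signal. A second probe set (1450836_at) was dim, from 1.22 to 16.2, and did not pass the filter. Fitted without a filter, over all probe sets, its slope was 0.24 ± 0.083 (limma adjusted p = 0.152).

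The Neurog genes differed in which pieces were called against part 1, with a wider standard error for Neurog1 than for Neurog2. Neurog2 was higher by 2.55 ± 0.24 log2 in part 2 (limma adjusted p = 0.00633), 3.74 ± 0.24 in part 3 (adjusted p = 0.000179), 4.43 ± 0.24 in part 4 (adjusted p = 2.68e-05) and 5.16 ± 0.24 in part 5 (adjusted p = 5.54e-06). Neurog1 differed from part 1 by 0.077 ± 0.54 log2 in part 2 and 0.17 ± 0.54 in part 3 (limma adjusted p = 0.976 and 0.923). In part 4 the difference was 2.09 ± 0.54 (adjusted p = 0.0672, and 0.0289 with the embryo as a block). It was 3.05 and called without replicate 2 of part 4 (adjusted p = 0.00779), and 1.13 without replicate 1 (0.2495), so where Neurog1 first exceeded part 1 rests on these arrays. In part 5 the difference was 3.43 ± 0.54 (adjusted p = 0.00541). Whether the courses of these genes differ was not itself tested.

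Neurod1, a bHLH factor of differentiating neurons that Neurog factors activate, was read by both of its probe sets. The brighter (1426413_at) gave 9.89 and 2.42 in part 1, 6.94 and 13.1 in part 2, 14.6 and 7.28 in part 3, 18.1 and 10.1 in part 4, 29.9 and 23.9 in part 5, and 27.9 and 32.7 in part 6. The other (1426412_at) lay between 1.52 and 12.4 in parts 1 to 4, and had 25.2 and 21.9 for part 5 and 31.8 and 31.6 for part 6. With either probe set, all 4 arrays of parts 5 and 6 lay above all 8 arrays of parts 1 to 4. The slopes were 0.36 ± 0.060 for the brighter probe set (limma adjusted p = 0.00135) and 0.35 ± 0.083 for the other (adjusted p = 0.0201 over the 26206 kept probe sets, of which 3.87% rose and 4.38% fell). Part 5 exceeded part 1 by 1.66 ± 0.39 log2 (adjusted p = 0.0363) and part 6 did so by 1.81 ± 0.39 (adjusted p = 0.0202). These differences were less secure than the slope. Without replicate 2 of part 1, the array with the lowest signal, the difference in part 5 was 1.12 log2 (limma adjusted p = 0.1497) and that in part 6 was 1.27 (adjusted p = 0.0869), and each was also not called without either array of part 6 (up to 0.123). Part 5 was not called without either of its own arrays (up to 0.180).

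Because Neurog2, Neurog1 and Neurod1 all rose, the 250 bases before their annotated starts are shown, from RefSeq (GRCm38.p6). The window of Hes6 that held the most E-boxes is added, chosen by that count, so it makes no fair contrast with them. Capitals mark E-boxes (CANNTG, the same read on either strand) and TATAA, the core of a TATA box, searched on both strands.
Neurog2 (chr3:127632886-127633135, plus strand): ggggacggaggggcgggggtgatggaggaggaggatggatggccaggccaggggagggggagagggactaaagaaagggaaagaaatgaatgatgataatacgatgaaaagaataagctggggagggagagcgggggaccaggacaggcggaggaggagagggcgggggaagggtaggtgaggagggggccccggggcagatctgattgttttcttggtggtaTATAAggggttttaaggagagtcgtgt
Neurog1 (chr13:56252181-56252430, minus strand): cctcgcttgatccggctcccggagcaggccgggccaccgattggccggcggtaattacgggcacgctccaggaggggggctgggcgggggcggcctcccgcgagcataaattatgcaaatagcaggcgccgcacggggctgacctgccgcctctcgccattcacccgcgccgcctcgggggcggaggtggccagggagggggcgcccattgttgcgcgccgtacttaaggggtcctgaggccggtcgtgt
Neurod1 (chr2:79456637-79456886, minus strand): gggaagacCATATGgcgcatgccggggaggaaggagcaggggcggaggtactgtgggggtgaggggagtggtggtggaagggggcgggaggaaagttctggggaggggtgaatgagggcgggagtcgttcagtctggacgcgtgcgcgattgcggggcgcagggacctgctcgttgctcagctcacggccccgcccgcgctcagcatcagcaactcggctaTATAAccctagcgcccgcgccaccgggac
Hes6 (chr1:91414039-91414288, minus strand): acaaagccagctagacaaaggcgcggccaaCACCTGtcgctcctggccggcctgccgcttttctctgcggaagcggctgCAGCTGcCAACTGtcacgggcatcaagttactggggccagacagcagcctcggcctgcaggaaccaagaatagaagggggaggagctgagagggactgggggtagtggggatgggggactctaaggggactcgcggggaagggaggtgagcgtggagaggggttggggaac

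The Neurog1 window held neither motif, and the Neurog2 window held no E-box. TATAA began 27 bases before the start in Neurog2 and 29 before it in Neurod1, whose 1 E-box, catatg, lay 242 bases before the start. The Hes6 window shown had 3 E-boxes, 220, 171 and 164 bases before the start, and that of its other start had 1, at 150, with TATAA at 28. Among 32851 windows of the same length, 66.2% held an E-box and 22.8% held TATAA. The E-box form CAGATG (or CATCTG), used by Neurog and Neurod factors, was in 14.4% of them, CAGCTG in 13%, and TGGGAA (or TTCCCA), the core of sites of the Notch partner RBPJ, in 21.6%; the 2 E-box forms are also counted among the E-boxes. Windows were found for 6 of the 8 genes, 8 windows in all, not for Insm1 and Ebf2. Both windows of Neurod4, whose slope did not pass, held no E-box and no TATAA. Of all 8 windows, only that of Nhlh1 held CAGATG, 203 bases before the start, and TGGGAA, at 135. These are matches of letters, not binding sites.

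Neurod4, a bHLH factor that acts beside Neurod1 in early neurons, was seen at the end of the series, though not with every probe set. Its brightest probe set (1436694_s_at, whose suffix marks probes that more than 1 transcript can share) gave 4.51 and 6.74 in part 1, 0.221 and 2.88 in part 2, 0.621 and 3.41 in part 3, 0.593 and 0.417 in part 4, 3.62 and 12.8 in part 5, and 24.9 and 19.1 in part 6. Both part 6 arrays lay above the other 10, and no array before part 6 reached its median. The slope of 0.28 ± 0.12 did not pass (limma adjusted p = 0.156). The probe set entered the fits only through its part 6 arrays. So entered, it passed the F test for any difference among the pieces (adjusted p = 0.0255), and part 6 differed from part 1 by 1.40 ± 0.37 log2 (adjusted p = 0.0481). Without the filter neither was called (limma adjusted p = 0.0520 for the F test and 0.0846 for part 6). Leaving out any of 8 arrays ended the call of part 6 (limma adjusted p up to 0.2005), and leaving out any of 6 ended the F call (up to 0.137). The other probe sets went different ways: 1418055_at gave 19.4 and 11.8 in part 1 and at most 7.69 elsewhere, and 1418054_at exceeded 3.21 only once, at 13.2 in part 6.

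Nhlh1, a bHLH gene of newborn neurons, and Insm1, a zinc finger factor that marks cells turning from progenitor to neuron, stayed dim. Nhlh1 (1419533_at) ranged from 6.83 to 14.9, and its highest signals were 14.9 and 14.3, in part 6. Insm1 ranged from 1.52 to 7.27 with 1421399_at and from 0.331 to 4.44 with 1455865_at. Without the filter on low signals, the slopes were 0.063 ± 0.048 for Nhlh1 (limma adjusted p = 0.526) and -0.016 ± 0.054 for Insm1 (adjusted p = 0.913). Detection calls were not used here, so these signals cannot be told from background, and nothing follows about whether the genes were transcribed.

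**Figure D2:**
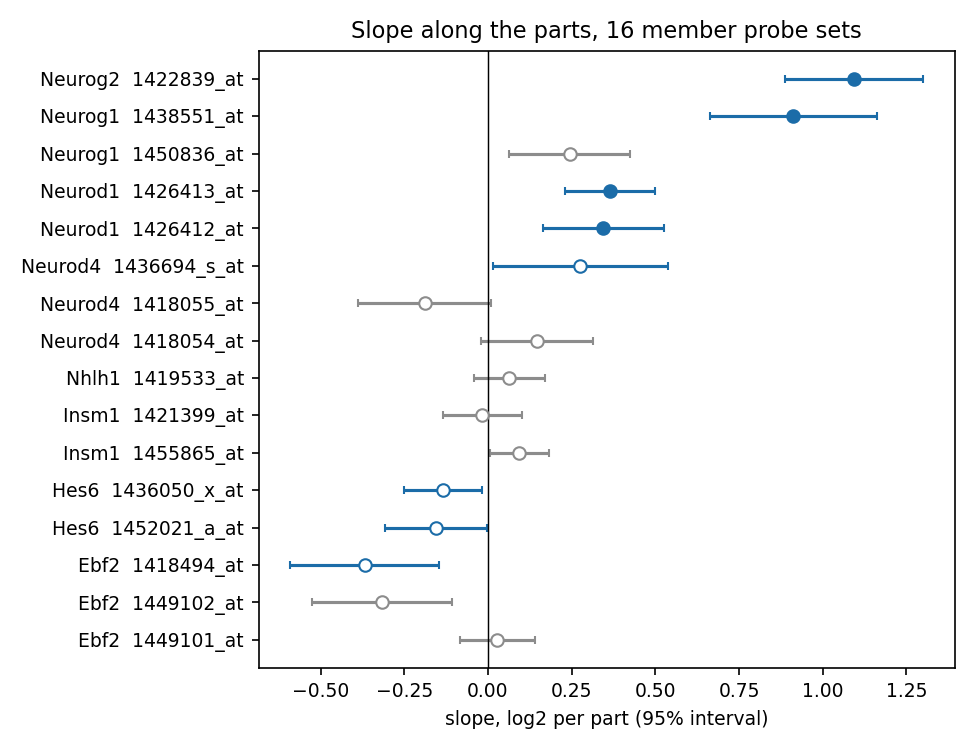
Slope along the parts in log2 per part, with 95% intervals, for the 16 member probe sets, from limma without a filter on low signals; blue marks probe sets that passed the filter, grey those that did not, and filled points have an adjusted p under 0.05. Neurog2, the brighter Neurog1 probe set and both Neurod1 probe sets are filled, at 0.35 to 1.09.

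Hes6, a Hes-related protein that inhibits Hes1 and so favours neuronal differentiation, did not rise. Its brighter probe set (1436050_x_at, whose suffix warns of probes that resemble other sequences) gave 157 and 267 in part 1, 197 and 191 in part 2, 219 and 212 in part 3, 254 and 187 in part 4, 189 and 176 in part 5, and 111 and 106 in part 6. The part 6 arrays were below all others. The slope was -0.13 ± 0.053 (limma adjusted p = 0.119), with -0.15 ± 0.070 for the dimmer 1452021_a_at (adjusted p = 0.220 over the kept probe sets). Part 6 differed from part 1 by -0.89 ± 0.25 log2, which just missed the threshold (adjusted p = 0.0530). The wide spread of part 1 matters here: without its replicate 1 the difference was -1.27 and the slope -0.19. With 1 array left out at a time the difference ran from -1.27 to -0.52 and the slope from -0.19 to -0.093.

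Ebf2, a helix-loop-helix factor of the Ebf family known from early neurons and also from mesodermal tissues, had a negative slope with its brightest probe set. Its brightest probe set (1418494_at) gave 73.0 and 20.3 in part 1, 73.0 and 24.6 in part 2, 13.7 and 16.1 in part 3, 9.14 and 10.5 in part 4, 7.25 and 9.58 in part 5, and 16.5 and 9.52 in part 6. All 4 arrays of parts 1 and 2 lay above the other 8, and replicate 1 was the higher array in both of these pieces. The slope was -0.37 ± 0.10 log2 per part (limma adjusted p = 0.0300), and part 6 differed from part 1 by -1.36 ± 0.54 (adjusted p = 0.168). The slope was not called without replicate 1 of part 1 (-0.28, limma adjusted p = 0.116), without either array of part 5 (0.0582 and 0.0555) or without replicate 2 of part 6 (0.0539). Without replicate 2 of part 1, Ebf2 was called lower than in part 1 in part 4 (-2.44, limma adjusted p = 0.0410), part 5 (-2.60, 0.0236) and part 6 (-2.18, 0.0361). With 1 array left out at a time the part 6 difference ran from -2.18 to -0.54. A dimmer probe set (1449102_at) gave 24.5 and 7.73 in part 1, 11.1 and 2.52 in part 2 and at most 3.27 later. The third (1449101_at) never exceeded 5.60.

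Some markers of other tissues also fell with the part number. Of 9 somite genes, 3 were tested and 1 fell, the somite factor Tcf15 (-0.28 ± 0.049; limma adjusted p = 0.00208). Foxc2 (-0.44 ± 0.22) and Meox1 (-0.073 ± 0.19) did not pass (limma adjusted p = 0.240 and 0.849). Their part 2 means were 92.9 ± 130 and 56.1 ± 75.4 (SD), so the arrays of that piece were far apart. Meox2, Pax1, Pax9, Myf5, Tbx18 and Uncx did not pass the filter, with signals of at most 19.1. The summed signal of the tested somite genes was 155.5 and 92.2 in part 1, 451 and 94.9 in part 2, and between 41.3 and 107 in parts 3 to 6. Presomitic mesoderm markers, of which 4 of 8 fell and 1 rose, summed to 5600 and 4019 in part 1, 4251 and 2226 in part 2, and 656 to 1032 in parts 3 to 6. The segmentation genes Hes7 (-1.27 ± 0.098 log2 per part) and Tbx6 (-0.86 ± 0.19) and the Wnt enhancer Rspo3 (-0.97 ± 0.092) were among those that fell, and the protocadherin gene Pcdh8 rose (1.05 ± 0.23). Of 9 tested surface ectoderm genes 7 fell, led by the keratins Krt18 (-0.40 ± 0.060) and Krt8 (-0.66 ± 0.11) and the adhesion genes Epcam (-0.55 ± 0.093) and Cdh1 (-0.70 ± 0.12). Of 3 tested genes of endothelium and blood (Kdr, Hbb-bh1 and Hba-x), limma called 0, with 0 at an unadjusted p under 0.05. Their summed signal differed widely between arrays of a piece, at 37.4 and 1664 in part 6 and 27.0 and 2846 in part 1, mostly from the embryonic globin gene Hbb-bh1 (12.6 to 2703 over the arrays). The part of these tissues in the Ebf2 signal was not tested.

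Set against the whole table, the slope called 5.66% of 12089 genes as rising and 7.08% as falling. Among the 6 tested members 3 rose (Neurog2, Neurog1 and Neurod1), 1 fell (Ebf2) and 2 did not pass. In part 6 against part 1, 4.17% of all genes were called higher and 4.92% lower, and 4 members were higher and 0 lower. In part 2 against part 1, 0.165% of genes were higher and 0.0827% lower, with Neurog2 as 1 member higher. In part 3 the shares were 1.59% and 1.25%, and in part 4 they were 2.32% and 2.14%, again with Neurog2 as 1 member higher. In part 5 the shares were 3.4% and 3.35%, with Neurog2, Neurog1 and Neurod1 higher. The F test called 4.91% of genes and 3 members, Neurog1 (limma adjusted p = 0.00416), Neurog2 (adjusted p = 1.68e-05) and Neurod4.

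**Figure D3:**
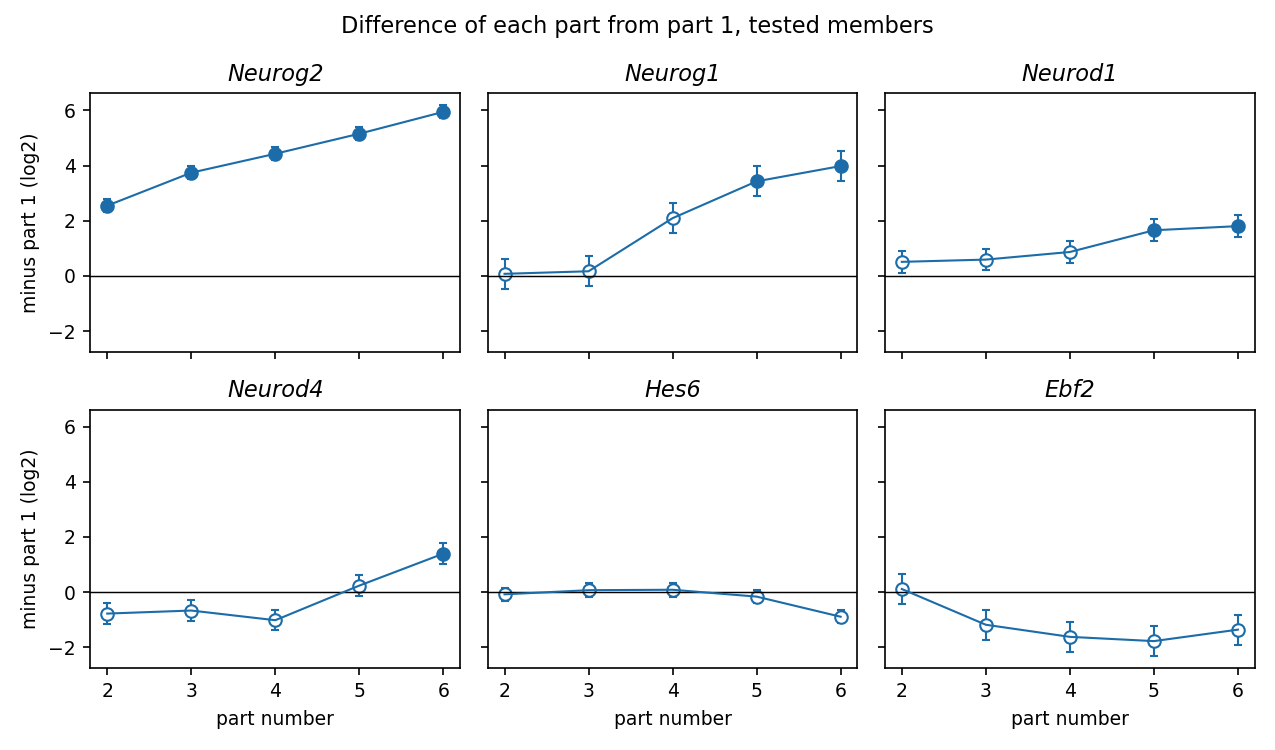
Difference of each later part from part 1 on the log2 scale, with its standard error, for the 6 tested members; filled points have a limma adjusted p under 0.05. Neurog2 is filled from part 2, Neurog1 and Neurod1 from part 5, Neurod4 in part 6, and Hes6 and Ebf2 nowhere.

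Between consecutive pieces after part 2, limma called 0 of the 6 members. At an unadjusted limma p under 0.05, part 3 differed from part 2 for 2 members, Neurog2 and, as lower, Ebf2 (608 of 12089 genes). Part 4 differed from part 3 for 2, Neurog1 and Neurog2 (391 genes). For part 5 against part 4 there were 3, Neurog1, Neurog2 and Neurod4 (439 genes). For part 6 against part 5 there were 3, Neurog2, Neurod4 and, as lower, Hes6 (463 genes). Such steps were rarely called for any gene: 0.091% were higher and 0.0993% lower in part 3 than in part 2, and 0.00827% were higher and 0% lower at each later step. The largest of these differences for a member was that of Neurog1 in part 4 over part 3, 1.92 ± 0.54 log2 (limma adjusted p = 0.883). Neurod4 was higher in part 5 than in part 4 by 1.26 ± 0.37 (adjusted p = 0.871).

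Differences between the replicates, taken as embryos, were not called for any tested member. The slope of replicate 2 less that of replicate 1 was called for 0% of genes by limma. At an unadjusted p under 0.05 there were 0 members and 798 of 12089 genes. The slopes were 1.04 ± 0.14 in replicate 2 and 1.15 ± 0.14 in replicate 1 for Neurog2, and 0.78 ± 0.15 in replicate 2 and 1.04 ± 0.15 in replicate 1 for Neurog1. For Ebf2 they were -0.22 ± 0.13 in replicate 2 and -0.52 ± 0.13 in replicate 1. In level, 1.63% of genes differed between the replicates and 0 members did. At an unadjusted p under 0.05 there were 2395 of 12089 genes and 1 member (Neurog1, -0.60 ± 0.25 log2, limma adjusted p = 0.242).

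The tissue was checked with markers of neural progenitors, of which 10 of 13 tested genes rose and 0 fell. Among those that rose, Rfx4 (1.34 ± 0.12 log2 per part), Sox21 (0.75 ± 0.072), Irx3 (1.18 ± 0.13) and Pax6 (0.84 ± 0.093) had the smallest p. The 3 that did not pass had negative slopes: Fabp7 (-0.48 ± 0.21), Pax7 (-0.090 ± 0.17) and Nes (-0.043 ± 0.049). Fabp7 averaged 51.5 in part 6 and 518 in part 1. The pan-progenitor factor Sox2 had a lowest signal of 198.8 over the arrays. Its means in parts 1 to 6 were 243, 901, 1382, 1588, 1476 and 1518. The summed signal of the 13 genes was 6519 and 7046 in part 6 and 1279 and 1201 in part 1. Bright genes weigh most in this sum, such as Irx3, with means of 2711 in part 6 and 40.6 in part 1. The part of progenitor abundance in the rise of the proneural genes was not tested.

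Some other bHLH factors of neural progenitors also rose. Of 11 listed, 6 were tested, 4 rose and 0 fell. Olig1, Olig2 and Neurog3 were dim in the early pieces and passed the filter only through later ones. The share that rose is therefore no measure of the whole list. With no filter on low signals, 5 of 9 genes were called as rising and 0 as falling. Dropping part 1 from the fit left 2 upward calls and 1 downward call, that of Atoh1, among the 6 genes. Olig2, of motor neuron progenitors, rose by 0.85 ± 0.12 log2 per part, Olig1, its neighbour in the genome, by 0.50 ± 0.10, and Neurog3, best known from the pancreas, by 0.51 ± 0.12. Olig3, of dorsal progenitors, had a slope of 0.84 ± 0.20. In part 6 the mean signals were 87.0 for Olig2, 45.5 for Olig1, 58.9 for Neurog3 and 75.7 for Olig3, against 1.01, 6.16, 3.37 and 1.06 in part 1, though Olig3 was highest in part 4, at a mean of 217. The call for Neurog3 was lost without replicate 1 or replicate 2 of part 6 (limma adjusted p = 0.0511 and 0.0585), and that for Olig3 without replicate 1 or replicate 2 of part 1 (0.0678 and 0.0604). Atoh1, of the most dorsal progenitors, was dim (5.02 to 28.7) and did not pass in the main fit (-0.15; limma adjusted p = 0.188).

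Some partners and inhibitors of proneural proteins rose. Of 7 E protein and Id genes, 3 rose and 0 fell. The inhibitors Id4 and Id3 had slopes of 0.27 ± 0.050 and 0.29 ± 0.070, and the E protein gene Tcf12 of 0.11 ± 0.031 (limma adjusted p = 0.0382, lost under 12 of 21 alternatives). Id2 (0.20 ± 0.073) did not pass. Id3 was not called without replicate 1 or replicate 2 of part 6 (limma adjusted p = 0.0605 and 0.0675), and without replicate 2 of part 6 1 gene of the list rose.

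Notch pathway genes, through which proneural cells inhibit their neighbours, mostly did not pass: of 20 tested, 2 rose and 2 fell, close to the 5.66% and 7.08% of all genes. The Notch effector Hes5 had a slope of 0.90 ± 0.21, with a mean signal of 1517 in part 6 and 119 in part 1. Notch2 rose by 0.22 ± 0.037, but not when its probe sets were averaged (limma adjusted p = 0.738). The ligand Dll3 fell by 0.66 ± 0.096 and is also a presomitic mesoderm marker, and Hey1 fell by 0.19 ± 0.042. A straight slope does not show a course that falls and then rises. The ligand Dll1 did not pass (-0.085 ± 0.22; limma adjusted p = 0.852). Its mean signals were 339 ± 160 in part 1 and 273 ± 355 in part 2 (SD). They were 36.8, 60.6, 120 and 188 in parts 3 to 6.

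Most other genes of neurogenic commitment did not pass. Of 15 tested (22 listed), 3 rose, 1 fell and 11 did not pass. The cell cycle inhibitor Cdkn1c rose by 0.20 ± 0.036 log2 per part, the Neurog2 target Rnd2, which acts in neuronal migration, by 0.21 ± 0.039, and Gadd45g, a known proneural target, by 0.49 ± 0.12. Gadd45g had a mean signal of 62.1 in part 6 and 12.5 in part 1. In the other direction, the cell cycle inhibitor Cdkn1a fell by 0.69 ± 0.067. Among relatives of members, Ebf1, Ebf4 and the transition factors Myt1 and St18 did not pass the filter on low signals, and Ebf3 had a slope of -0.15 (limma adjusted p = 0.286). With the embryo as a block Sox11, a factor of immature neurons, also passed (0.14, limma adjusted p = 0.0447).

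Neuron markers went both ways. Of 27, 17 were tested, 4 rose, 4 fell and 9 did not pass, with a median slope of 0.034. Their summed signal was 1268 and 1215 in part 6 and 1324 and 1364 in part 1. Those that rose included Elavl4 (0.26 ± 0.073), an RNA-binding protein of neurons, Pou4f1 (0.20 ± 0.050), of sensory neurons, Onecut2 (0.17 ± 0.040) and Elavl2 (0.18 ± 0.052). Mnx1, of motor neurons and also of the notochord and tail bud, fell by 1.03 ± 0.11, and the cytoskeletal genes Stmn2 (-0.26 ± 0.037), Map2 (-0.24 ± 0.041) and Crmp1 (-0.15 ± 0.044) also fell. Without replicate 1 or replicate 2 of part 6, 1 of the 4 rises was called. Calls for Elavl4, Elavl2 and Crmp1 were lost under 8 of 20, 13 of 21 and 13 of 21 alternatives. The widely used marker Tubb3 did not pass (0.044; limma adjusted p = 0.725). Defining neuronal genes stayed under the filter, with highest signals of 14.9 for Dcx, 12.7 for Isl1, 9.36 for Lhx1 and 15.1 for Chat.

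Neural crest cells, which leave the dorsal tube and form sensory neurons with Neurog1 and Neurog2, could lie in the pieces. Of 8 tested crest genes 3 rose and 0 fell: Foxd3 (0.79 ± 0.092), Cdh6 (0.52 ± 0.093) and Tfap2b (0.44 ± 0.13; limma adjusted p = 0.0442, lost under 13 of 20 alternatives). Sox9 (0.39 ± 0.13) did not pass (adjusted p = 0.0667), but did with the embryo as a block (0.0446). Sox10, which migrating crest expresses, averaged 21.3 in part 6 and 18.9 in part 1 and did not pass (0.020; adjusted p = 0.804). Tfap2a (-0.19 ± 0.11) and Erbb3 (-0.18 ± 0.076) had negative slopes and did not pass (limma adjusted p = 0.305 and 0.136). The summed signal of the 8 genes was 994 and 866 in part 6 and 444 and 234 in part 1. Cdh6 alone had means of 484 in part 6 and 97.0 in part 1. The part of crest in the Neurog signals was not tested.

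**Figure D4:**
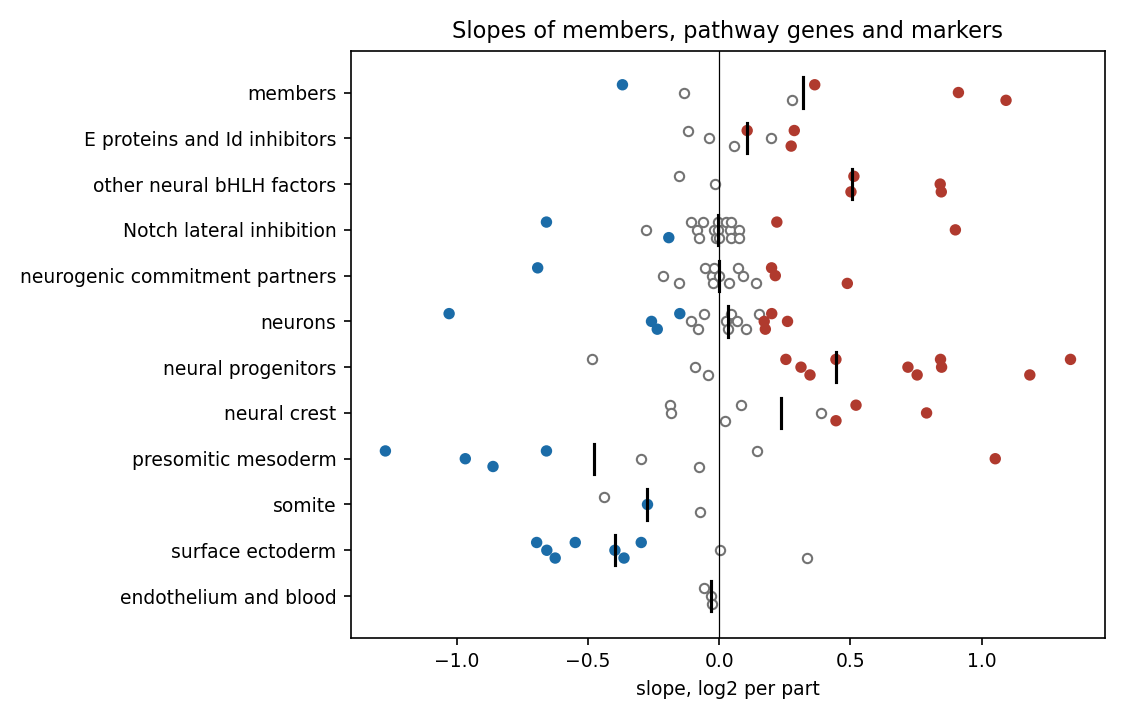
Slopes in log2 per part of the tested genes in each list; red points rose and blue points fell at a limma adjusted p under 0.05, open points did not pass, and black bars are list medians, 0.034 for neurons. Members and markers that failed the filter on low signals are not drawn. Vertical offsets within a row only separate points.

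Other genes followed individual members closely over the 12 arrays, a description in which arrays share embryos and the overall trend along the tube. With Neurog2 the highest Pearson correlations of log2 signal were those of the Wnt receptor gene Fzd3 (0.986), the growth factor gene Ptn (0.982) and Mn1 (0.978). Ptn had a mean signal of 1367 in part 6 and 56.7 in part 1. Neurog1 was most like Metrn (0.958), a secreted factor of neural cells, Zadh2 (0.956) and Rpap3 (0.954). Metrn averaged 60.5, 65.8 and 74.9 in parts 1 to 3 and 155, 196 and 234 in parts 4 to 6. Neurod1 was most like Skida1 (0.938), Phlpp1 (0.931) and Igfbp5 (0.930).

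For the remaining members the most similar genes were Celf2 (0.875), Hes5 (0.870) and Ackr3 (0.863) with Neurod4, and Scnn1b (0.924), Zscan5b (0.877) and Lpar6 (0.858) with Hes6. Hes5 had means of 119, 35.2, 35.3, 80.3, 632 and 1517 in parts 1 to 6, and the Neurod4 signals of the early pieces, near or under the added constant, cannot be told from background. Ebf2 was most like the growth factor gene Fgf9 (0.963), Pcolce2 (0.960) and the muscle actin gene Actc1 (0.954). Actc1 had means of 124, 192, 39.4, 18.8, 16.8 and 16.9 in parts 1 to 6. Between members, Pearson r was 0.817 for Neurog2 with Neurog1, 0.866 for Neurog1 with Neurod1 and -0.731 for Neurog2 with Ebf2.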

How the data were processed

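The deposited values are linear array intensities, 1 per probe set and array, for which the submitters' processing notes name MAS5; the settings the authors used are not given in the sources. RNA was amplified in 2 cycles per the labels' protocols, which shortens copies toward the 3′ end. The number of embryos, 2 for all 12 arrays per the design text, is what limits precision. Arrays of 1 embryo are not independent, and the main fits held no embryo term.

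Control probe sets made up 64 of the 45101. GEO's platform annotation named 1 gene for 34945, several for 932 and none for 9160, and 34741 of the first kind matched the RefSeq gene table. A probe set was kept when above its array's median on at least 2 arrays. Each gene was represented by its brightest kept probe set, giving 12089 genes, transformed as log2(signal + 4.43), a constant of 0.25 times the overall median signal, and not normalized again. limma 3.58.1 in R 4.3.3 fitted the slope over all arrays, a mean per piece for the F test, the differences from part 1 and consecutive steps, and the embryo differences. A fit on all kept probe sets gave the second probe sets. The steps were tested on simulated data. The members, gene lists and tests were chosen with earlier results of these data known; TATAA was added after the sequences were seen. Named genes were all members, the 4 smallest slope p-values of each list with called genes against the list's majority, and the 3 most correlated genes per member (clone names passed over). Sox2, Fabp7, Pax7, Nes, Tubb3, Atoh1, Sox10, Tfap2a, Erbb3, Ebf3, Dll1 and the dim genes were named after their values were seen.

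Replicate numbers were taken to pair the arrays by embryo, which the labels do not state for each array. The design text names 2 embryos. In each of 15 pairs of pieces the same-numbered arrays deviated together over genes (r between 0.183 and 0.335, all over 0.1). This check cannot tell a shared embryo from anything else that same-numbered arrays share. Between the arrays of a piece r was lowest in part 1, at 0.951, and highest in part 5, at 0.980. Alternatives were other constants, filters, a quantile normalization, averaged probe sets, the embryo as a block, and leaving out arrays.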

Additional observations from a re-analysis of the deposited data

How the results depend on the processing

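The rises of Neurog2 and, where tested, of Neurog1 and Neurod1 by slope kept their direction and their call under all alternatives run, as did the call of Neurog2 in every comparison with part 1. No called member changed sign. With the filter at the 75th percentile only Neurog2 and Hes6 of the members were tested, which left 1 member called by slope, 1 by the F test, 1 for part 5 and 2 for part 6, Hes6 being called lower there. For part 4 against part 1, 2 members were called with an added constant of 1 and 2 with the replicate block, Neurog1 joining Neurog2; the replicate block changed no other call of a member. Leaving out 1 array at a time gave 3 to 4 members by slope, 2 to 3 by the F test, 1 to 2 for part 4, 2 to 3 for part 5 and 2 to 4 for part 6. Over all genes it gave 1177 to 1542 slope calls (1540 with all arrays), 344 to 566 F calls (594) and 487 to 1305 calls for part 6 against part 1 (1099). The slope called 903 genes without both arrays of part 1 and 976 without both of part 6. With a constant of 1, Neurod4 lost its F call (limma adjusted p = 0.0578) and its call in part 6 (0.1526), and Neurod1 its call in part 5 (0.0559); without a filter these p-values were 0.0520, 0.0846 and 0.0672. Hes6 in part 6 was called as lower with a constant equal to the median signal (0.0371) and with averaged probe sets (0.0310), and Neurod1 by the F test with averaged probe sets (0.00433). Without both arrays of part 1 the slope of Neurod4 was called (0.53; limma adjusted p = 0.0326) and that of Ebf2 was not (0.129). Low signals near the floor of a few units limit what can be said of Nhlh1, Insm1 and Neurod4.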
